A study of Mus musculus with 12 samples.

Results

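Hepcidin and 9 other genes or gene copies of iron handling were followed across bulk RNA-seq libraries of mouse liver. They were chosen as a list of iron-handling gene symbols of the deposited count table: the hepcidin genes Hamp and Hamp2, the hepcidin regulators Bmp6, Hfe and Tfr2, the transferrin receptor Tfrc, the carrier Trf, the exporter Slc40a1, and the ferritin chains Fth1 and Ftl1. The list holds 10 of the 24527 symbols in the table. All 10 were counted, and all 10 were among the 13204 genes that passed the filter on low counts.

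The study compared offspring conceived by in vitro fertilization (IVF) with naturally conceived offspring in each sex. The 4 groups were IVF females, natural females, IVF males and natural males, each with 3 libraries, and all mice were 39 weeks old at collection. Every mouse came from a CF1 mother and a B6SJL father, the IVF groups through the protocol of the Jackson Laboratory, and no group carried a named mutation or drug treatment. Libraries were made from poly-A selected RNA of snap-frozen liver pieces, so that cells of all types in the tissue contributed. The labels did not state that replicates were litter-independent or how many litters were used, so that p-values measure only the spread between these samples. The titles of IVF female replicate 1 and IVF male replicate 2 share the number before the dot, whose meaning is not stated, and these libraries were treated as unrelated. In bulk RNA, fewer cells of a type and less RNA per cell cannot be told apart.

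Total counts ran from 6826534 to 27832271 per library. IVF female replicate 1, with 6826534 counts, and natural female replicate 2, with 8056230, were the shallowest, and they stood apart from the other 4 female libraries in several of the 10 genes. The mean log2 level in these 2 libraries minus that in the other females was 1.95 for Hamp, higher than for 98.8% of tested genes, and it was -1.30 for Ftl1, at the percentile 4.86. All 10 hepatocyte markers, such as albumin, were detected in every group, and their summed level was between 90759 and 127711 CPM, a count scaled to a common library total. All levels below are CPM after scaling by the trimmed mean of M values (TMM) unless stated per kilobase. A gene was called when its adjusted p from edgeR's quasi-likelihood test with Benjamini-Hochberg adjustment over all tested genes was under 0.05, and each ± beside a log2 fold change is its standard error.

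Hepcidin is a peptide hormone that hepatocytes release into blood. It binds the iron exporter ferroportin, the product of Slc40a1, and causes its degradation, which holds iron inside macrophages, enterocytes and hepatocytes. Hepcidin transcription is raised by bone morphogenetic proteins made in the liver sinusoids, by iron-loaded transferrin sensed through Hfe and Tfr2, and by interleukin-6 through STAT3. Inside cells, iron regulatory proteins bind hairpins called iron-responsive elements in messenger RNAs, blocking translation of ferritin and ferroportin and protecting the Tfrc message from decay when iron is scarce. Mice carry a second hepcidin gene, Hamp2, next to Hamp.

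Hamp lies on chr7:30942368-30944032 and Hamp2 on chr7:30922372-30924681, both on the minus strand of GRCm38 and 17686 bases apart, and the main transcript of each has 3 exons. Of the 361 stretches of 50 bases in the Hamp transcript, 60, or 16.6%, also occur in Hamp2. How the authors' counting assigned a read that matches both genes is not given in the sources used here, so a count of either gene can hold reads of the other. In addition, 15.3% of the exon bases of Hamp2 overlap exons of Gm44662 on the opposite strand.

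The 250 bases before each start site are shown because the hepcidin promoter is where the known signals meet. They come from the RefSeq promoter table on GRCm38.p6, read on the minus strand of each gene. Capitals mark GGCGCC, the core of the element through which bone morphogenetic proteins are known to act on hepcidin, and TTCNNNGAA, the pattern that STAT factors are known to bind, together with the aligned bases of Hamp2.
Hamp, chr7:30944030-30944279, minus strand: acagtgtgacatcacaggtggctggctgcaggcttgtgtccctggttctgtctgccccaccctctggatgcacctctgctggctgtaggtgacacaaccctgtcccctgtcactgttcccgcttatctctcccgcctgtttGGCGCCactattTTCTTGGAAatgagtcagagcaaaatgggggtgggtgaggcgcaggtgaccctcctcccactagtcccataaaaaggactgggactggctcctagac
Hamp2, chr7:30924182-30924431, minus strand: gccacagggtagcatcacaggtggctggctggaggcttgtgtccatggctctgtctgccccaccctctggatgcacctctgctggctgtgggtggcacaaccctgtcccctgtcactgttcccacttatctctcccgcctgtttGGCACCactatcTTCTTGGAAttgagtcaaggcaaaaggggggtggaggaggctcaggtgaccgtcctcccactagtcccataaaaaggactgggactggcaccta
These stretches are 89.7% identical. In the search of both strands, Hamp held GGCGCC at -109 from the start site and TTCTTGGAA at -97. Hamp2 held TTCTTGGAA at -94 and no GGCGCC, and the aligned bases at -106 read GGCACC, a change written G145A when positions are counted from the first base of the Hamp stretch shown. Among 32817 promoters of 250 bases before to 50 after the start, 11.86% held GGCGCC, 8.29% held TTCNNNGAA and 0.64% held both. TATAAA, held by 13.62% of promoters, matched neither hepcidin promoter in that spelling. Promoters were found for 8 of the 10 genes, and 1 of the promoters of Tfrc also held GGCGCC, at -89. These matches describe letters in a window and no binding was measured.

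Hamp2 was far lower in male than in female livers under both modes of conception, and it was the only one of the 10 genes called in any comparison. In IVF females its level was 556, 92.7 and 189.3 CPM in replicates 1 to 3, and in natural females 257.7, 427.8 and 154.2 CPM. In IVF males it was 1.92, 2.61 and 1.95 CPM, and in natural males 2.10, 0.25 and 1.90 CPM. The lowest female library stood far above the highest male library, so the sexes did not overlap, while the IVF and natural groups of each sex did. The male values rested on 28, 53 and 39 counts in IVF males and on 46, 5 and 48 counts in natural males, and natural male replicate 2 was the lowest of them. Intervals and counts here cover counting error within a library only. The reads carried no molecular identifiers, so reads copied from 1 molecule were not told apart.

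The male minus female log2 fold change of Hamp2 was -7.60 ± 0.88 after natural conception, which is 194-fold on the fitted scale, with an adjusted p of 0.000654 from edgeR's quasi-likelihood test with Benjamini-Hochberg adjustment. In this comparison 1.77% of all tested genes were called, 0.879% as lower and 0.894% as higher in males. After IVF the fold change was -7.00 ± 0.85, with an adjusted p of 0.00101 in the same test, beside 2.19% of tested genes called and 1.28% called as lower. Averaged over both modes of conception it was -7.30 ± 0.61, with an adjusted p of 2.27e-05 in the same test, beside 7.2% of tested genes called, 3.63% as lower and 3.57% as higher. The comparisons within a mode of conception use separate groups. Hamp2 was called in all 27 settings tried for each of them and in all 26 for the average, with fold changes from -7.97 to -7.01 after natural conception and from -7.42 to -6.05 after IVF. The IVF effect in males was 0.60 ± 0.74 with an adjusted p of 1, on groups whose counts were low throughout, and it was 0.11 without natural male replicate 2.

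Hamp itself, the gene of the hormone that circulates, varied widely between livers of the natural groups, through 1 high and 1 low library, and less within the IVF groups. In IVF females it was at 1078, 1018 and 678.9 CPM, and in natural females at 410.3, 2377 and 103.6 CPM. In IVF males it was at 442.1, 332.3 and 644.3 CPM, and in natural males at 286.5, 2.85 and 180.2 CPM. The highest library, natural female replicate 2, is 1 of the 2 shallow libraries, and the lowest, natural male replicate 2, had 57 counts of Hamp. The highest was 835 times the lowest. Without these 2 libraries the natural groups spanned 103.6 to 410.3 CPM, beside 332.3 to 1078 CPM over all IVF libraries. The difference in spread between natural and IVF groups was not tested. Leaving out natural male replicate 2, the other 5 male libraries spanned 180.2 to 644.3 CPM, and the 4 deeper female libraries spanned 103.6 to 1018 CPM.

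Males did not overlap females for Hamp after IVF and did after natural conception. The male minus female log2 fold change was -2.62 ± 1.23 after natural conception (adjusted p = 0.345) and -0.97 ± 1.17 after IVF (adjusted p = 0.763) in edgeR's quasi-likelihood test with Benjamini-Hochberg adjustment. Without natural female replicate 2 the first of these was -0.72, and without natural male replicate 2 it was -2.06. Averaged over conception it was -1.79 ± 0.84 (adjusted p = 0.223), and without both shallow libraries -0.80. All 3 IVF males were above all 3 natural males, beside 8.91% of tested genes whose groups did not overlap in that comparison, 4.85% with IVF higher and 4.07% with IVF lower. The IVF minus natural log2 fold change in males was 1.59 ± 1.18 (adjusted p = 1), and without natural male replicate 2 it was 1.01. The difference of the IVF effects between the sexes, 1.65 ± 1.64, turned to -0.25 without natural female replicate 2 and to -0.16 without both shallow libraries. No comparison of Hamp between groups exceeded the spread between livers by this test.

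**Figure D1:**
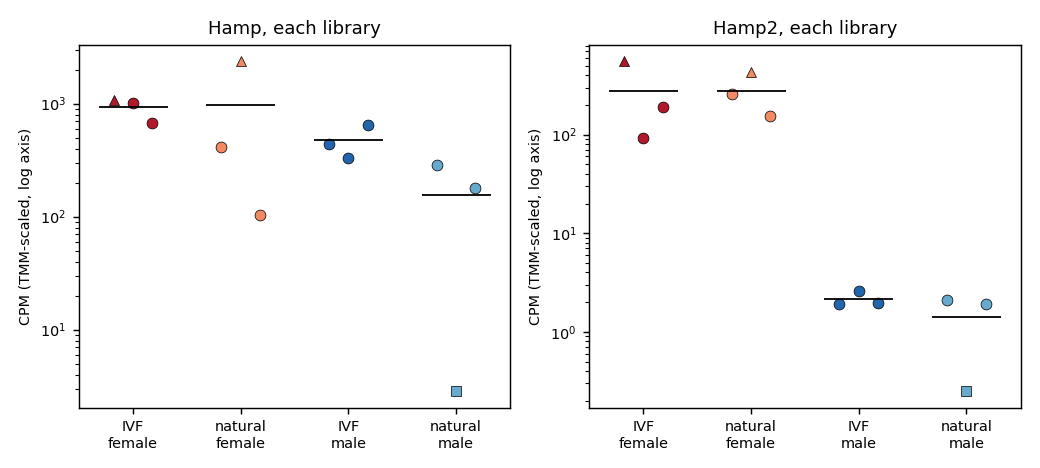
Levels of Hamp (left) and Hamp2 (right) in each library, in TMM-scaled CPM on log axes, by group. Points are libraries, lines are group means, triangles are the 2 shallow libraries and the square is natural male replicate 2. Hamp2 lies between 92.7 and 556 CPM in females and between 0.25 and 2.61 CPM in males, whereas Hamp spreads from 2.85 to 2377 CPM in the natural groups and from 332.3 to 1078 CPM in the IVF groups. The ends of the natural range of Hamp are natural male replicate 2 and natural female replicate 2.

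The share of Hamp2 in the summed counts of both hepcidin genes does not depend on the scaling between libraries. In females it was 29.6% ± 18.6 (SD, n = 6) and in males 1.89% ± 3.04 (SD, n = 6). Female libraries ran from 8.34% (95% Wilson interval 8.02 to 8.68) in IVF replicate 2 to 59.8% (58.3 to 61.2) in natural replicate 3, so this share differed between females far beyond counting error. Male libraries ran from 0.302% (0.221 to 0.412) in IVF replicate 3 to 8.06% (3.49 to 17.5) in natural replicate 2, where 5 of 62 counts were of Hamp2. That library came close to the lowest female library, and the next male library was at 1.04%. The male minus female difference was -27.7 percentage points (two-sided exact permutation test within mode of conception over 400 arrangements, p = 0.005, the smallest possible, adjusted p = 0.03 over 6 ratio tests). Leaving out any 1 of the 6 male libraries raised the adjusted p of this exact permutation test to between 0.06 and 0.12. Each such test had fewer arrangements and unequal groups. The same held without 1 female library, where the exact permutation p stayed at 0.005 with IVF female replicate 1, 2 or 3 left out. The difference was -28.9 points without natural male replicate 2 and -27.2 without natural male replicate 3. With IVF female replicate 1, 2 or 3 left out instead, the adjusted p of the same test was 0.03, 0.03 and 0.015. The IVF minus natural difference was -9.63 points (exact permutation test, p = 0.21, adjusted p = 0.42). It was -15.3 points without natural female replicate 2, -4.15 without natural female replicate 3, -6.37 without IVF female replicate 2 and -18.4 without both shallow libraries (adjusted p = 0.06 in the last exact permutation test).

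The regulators that carry the iron signal to the hepcidin promoter were not called in any comparison. Bmp6 (chr13:38345107-38500302), a ligand made mainly by sinusoidal endothelial cells, ran from 2.70 to 4.74 CPM over all 12 libraries on 19 to 114 counts. Hfe (chr13:23702034-23710854), a membrane protein related to class I histocompatibility molecules that associates with transferrin receptors, ran from 17.5 to 40.8 CPM. Its lowest library was natural female replicate 2, and its IVF minus natural log2 fold change in females was 0.32 ± 0.23 (adjusted p = 1), and 0.11 without that library. The 10 markers of sinusoidal endothelium summed to 298.9 to 382.2 CPM in female groups and 257.8 to 333.3 CPM in male groups, and 0 of these markers were called between the sexes.

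Tfr2 (chr5:137569840-137587481), the receptor through which hepatocytes sense transferrin-bound iron, ran from 144 to 390.7 CPM in females and from 291.4 to 448.9 CPM in males. Both shallow libraries gave the lowest values, 163 CPM in IVF female replicate 1 and 144 CPM in natural female replicate 2, and the other 4 females lay between 249.4 and 390.7 CPM. Its male minus female log2 fold change averaged over conception was 0.42 ± 0.25 (adjusted p = 0.331), and without both shallow libraries it was 0.12. Neither value passed edgeR's quasi-likelihood test.

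Tfrc (chr16:32608920-32632794), the receptor that takes transferrin into cells, had its lowest mean in natural females. It was at 62.3, 24.9 and 17.4 CPM in IVF females and at 9.11, 15.8 and 28.7 CPM in natural females. In IVF males it was at 64.2, 33.9 and 42.7 CPM, and in natural males at 35.9, 81.6 and 38.7 CPM. Natural males were above all natural females, while the IVF sexes overlapped through IVF female replicate 1, a shallow library. Natural male replicate 2, which had the least Hamp, had the most Tfrc.

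The male minus female log2 fold change of Tfrc was 1.54 ± 0.54 after natural conception (adjusted p = 0.200) and 0.44 ± 0.53 after IVF (adjusted p = 0.761) in edgeR's quasi-likelihood test with Benjamini-Hochberg adjustment. The value after IVF was 1.11 without IVF female replicate 1, 0.25 without replicate 2 and 0.12 without replicate 3. Averaged over conception it was 0.99 ± 0.38 (adjusted p = 0.135). It was called without IVF female replicate 1, at 1.32 with an adjusted p of 0.0484, and was 0.74 without natural male replicate 2. In females the IVF minus natural value was 0.95 ± 0.54 (adjusted p = 1), which was 0.26 without IVF female replicate 1. Tfrc is abundant in red cell precursors. Summed erythroid markers, of which the globin genes Hba-a2, Hbb-bs and Hbb-bt were at 0 in all 12 libraries, ran from 9.23 to 75.6 CPM in females and from 29.6 to 179.2 CPM in males, and their part in the Tfrc values was not tested.

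The log2 ratio of Tfr2 to Tfrc, each per kilobase of transcript, was 4.26 ± 1.35 (SD, n = 6) in females and 3.67 ± 0.57 (SD, n = 6) in males. The difference of -0.59 did not pass the exact permutation test (p = 0.365, adjusted p = 0.547), nor did the IVF minus natural difference of -0.49 (exact permutation test, p = 0.465, adjusted p = 0.558). Without both shallow libraries the sex difference was -1.20 (exact permutation test, p = 0.04, adjusted p = 0.06).

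Trf (chr9:103204001-103230444, minus strand) encodes transferrin, the plasma carrier of iron and a main secretory product of hepatocytes. It was the most abundant of the 10 genes, at 12504 to 17535 CPM in females and 9548 to 21949 CPM in males. The female libraries were close to each other, with a coefficient of variation of 12.2%, and the males spread more, at 27.5%. The lowest library was IVF male replicate 2 and the highest natural male replicate 2. The IVF minus natural log2 fold change in males was -0.46 ± 0.28 (adjusted p = 1), and -0.30 without natural male replicate 2. Of the 50-base stretches of the Trf transcript, 79.8% also occur in Gm20425, an annotated gene on the same strand that shares exon bases with it, so its count depends on how such reads were treated.

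Slc40a1 (chr1:45908068-45926523, minus strand) encodes ferroportin, the exporter that hepcidin acts on. It was at 106.3, 247.1 and 255.3 CPM in IVF females and at 247.6, 127.1 and 267.5 CPM in natural females. In IVF males it was at 161.5, 149.8 and 187.5 CPM, and in natural males at 221.4, 146.7 and 168.1 CPM. The 4 deeper female libraries lay within 247.1 to 267.5 CPM and above all 6 males, whereas both shallow libraries lay below all 6 males.

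With all 12 libraries the male minus female log2 fold change of Slc40a1 averaged over conception was -0.27 ± 0.24 (adjusted p = 0.519 in edgeR's quasi-likelihood test with Benjamini-Hochberg adjustment). Without both shallow libraries it was -0.59 ± 0.13 (adjusted p = 0.0292), and with a model term for them -0.56 ± 0.13 (adjusted p = 0.0229). The call of this gene therefore rested on how these 2 libraries were treated. Kupffer cells, the liver macrophages that recycle iron from red cells, also express Slc40a1. The 10 Kupffer markers summed to 384.3 to 568.1 CPM in female groups and to 190.8 to 387.9 CPM in male groups, at 526.4 CPM in IVF female replicate 1 and 384.3 CPM in natural female replicate 2. Averaged over conception, 5 of the 10 markers were called as lower in males, beside 3.63% of all tested genes. After natural conception 0 of the 10 were called, and after IVF 4 were called as lower, beside 0.879% and 1.28% of tested genes called as lower. The part of Kupffer cells in the Slc40a1 values was not tested.

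The ferritin chains build the shell that stores iron, the heavy chain Fth1 oxidizing it and the light chain Ftl1 helping to form the mineral core. Fth1 (chr19:9980598-9985098) was nearly level, at 1615, 1323 and 1104 CPM in IVF females and 1390, 1803 and 1482 CPM in natural females. It was at 1542, 1323 and 1274 CPM in IVF males and 1151, 1303 and 1276 CPM in natural males. Natural males lay below natural females, and the sexes overlapped after IVF. Its male minus female log2 fold change averaged over conception was -0.15 ± 0.15 (adjusted p = 0.568).

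Ftl1 (chr7:45457944-45459884, minus strand) was at 537, 925.2 and 1517 CPM in IVF females and at 1233, 460.1 and 1287 CPM in natural females. In IVF males it was at 1916, 1876 and 2130 CPM, and in natural males at 1346, 1897 and 2120 CPM. Males were above females in both modes of conception, as for 4.51% of tested genes, and 3.41% were lower in males in both modes. The lowest 2 values were those of the shallow libraries.

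The male minus female log2 fold change of Ftl1 was 0.85 ± 0.42 after natural conception (adjusted p = 0.369) and 0.99 ± 0.42 after IVF (adjusted p = 0.289). The value after natural conception was 0.51 without natural female replicate 2 and 0.49 without both shallow libraries, and that after IVF was 0.66 without IVF female replicate 1. Averaged over conception it was 0.92 ± 0.30, with an unadjusted p of 0.0092 and an adjusted p of 0.0855 in edgeR's quasi-likelihood test with Benjamini-Hochberg adjustment. Without both shallow libraries it was 0.58 ± 0.19 (adjusted p = 0.0874). DESeq2 called it, at 0.91 with an adjusted p of 0.0214, and so did edgeR without IVF female replicate 3, at 1.14 with an adjusted p of 0.0471. Of the 50-base stretches in the Ftl1 transcript, 78.9% also occur in other transcripts, mostly the pseudogene Ftl1-ps1, and 34.6% of its exon bases overlap exons of Gm10252 on the opposite strand or Gm22133. Its count is therefore uncertain where such reads were split or dropped.

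The log2 ratio of Ftl1 to Fth1 within a library, per kilobase of transcript, was -0.72 ± 0.93 (SD, n = 6) in females and 0.45 ± 0.21 (SD, n = 6) in males. The count of Ftl1 per kilobase was above that of Fth1 in all 6 males and in 1 of 6 females, IVF female replicate 3. Of the 50-base stretches, 78.9% for Ftl1 and 6.59% for Fth1 also occur in other genes. Which chain is above therefore depends on how such reads were counted. The difference of 1.18 was tested with a two-sided exact permutation test within mode of conception (p = 0.01, adjusted p = 0.03 over 6 ratio tests). Without both shallow libraries, whose ratios were -1.65 and -2.03, the difference was 0.62 (exact permutation test, p = 0.02, adjusted p = 0.06). Leaving out any 1 of the 6 male libraries also gave an adjusted p of 0.06 to 0.12 in this exact permutation test, with fewer arrangements and unequal groups. Tests without IVF female replicate 1, 2 or 3 had the same limits, and their adjusted p was 0.03, 0.03 and 0.015. The difference was 1.165 without natural male replicate 2 and 1.117 without natural male replicate 3. The IVF minus natural difference was 0.13 (exact permutation test, p = 0.705, adjusted p = 0.705).

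**Figure D2:**
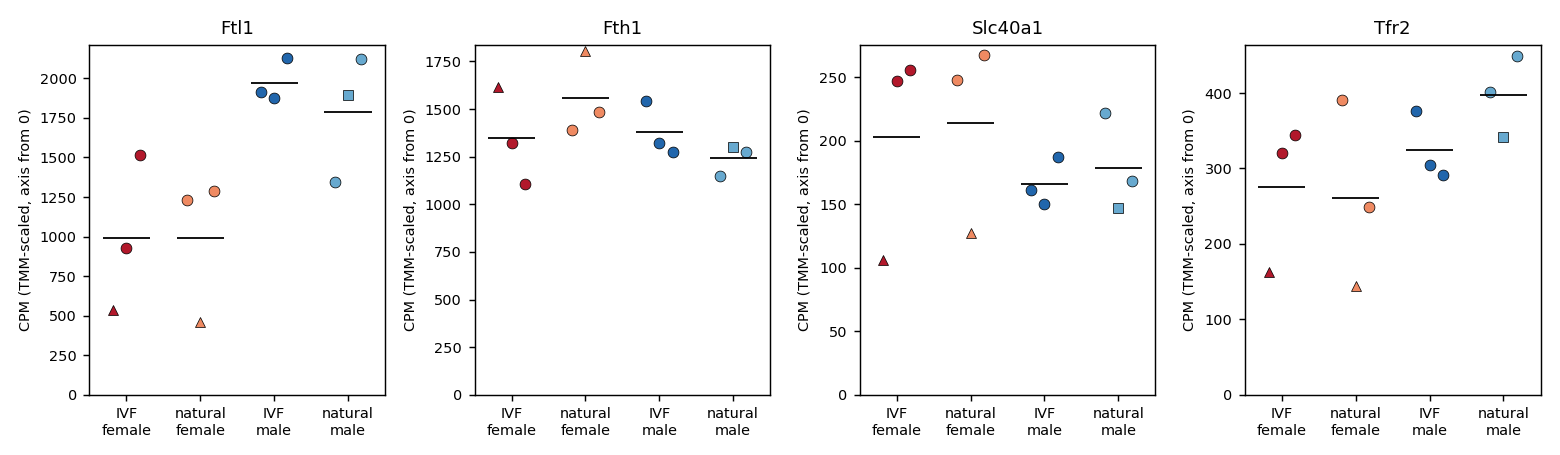
Levels of Ftl1, Fth1, Slc40a1 and Tfr2 in each library, in TMM-scaled CPM on axes that start at 0, by group. Points are libraries, lines are group means, triangles are the 2 shallow libraries and the square is natural male replicate 2. The shallow libraries are the lowest for Ftl1, Slc40a1 and Tfr2 and the highest for Fth1.

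Iron-responsive elements were searched in the main transcripts of the 10 genes because they are the shared element through which iron is known to act on the messages of storage, export and uptake. The pattern was the loop CAGTGN with an unpaired C before the upper stem, which needed 5 paired bases. It was found in 4 of the 10 genes, 4 times in the 3′ untranslated region of Tfrc and once each in the 5′ untranslated regions of Slc40a1, Fth1 and Ftl1, and in 1.34% of 21877 protein-coding genes. Each site of 29 bases is given in the sense of the transcript, from the GENCODE M21 transcripts on GRCm38, with the loop in capitals.
Tfrc 1, chr16:32631219-32631247, plus strand: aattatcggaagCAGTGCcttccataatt
Tfrc 2, chr16:32631598-32631626, plus strand: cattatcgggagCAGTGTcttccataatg
Tfrc 3, chr16:32631663-32631691, plus strand: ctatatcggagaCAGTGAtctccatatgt
Tfrc 4, chr16:32631710-32631738, plus strand: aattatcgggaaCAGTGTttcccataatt
Slc40a1, chr1:45925465-45925493, minus strand: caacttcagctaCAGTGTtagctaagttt
Fth1, chr19:9982732-9982760, plus strand: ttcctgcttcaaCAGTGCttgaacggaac
Ftl1, chr7:45459779-45459807, minus strand: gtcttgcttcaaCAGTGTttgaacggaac
Control of translation through these elements is not seen in RNA counts.

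Divided by transcript length, which allows a rough comparison of genes with each other, the 10 genes kept a wide range of levels. The places of Trf, Ftl1, Hamp and Hamp2 also depend on how reads shared with other genes were counted. The median over 12 libraries was 5530 CPM per kilobase for Trf, 1479 for Ftl1, 1424 for Fth1 and 1040 for Hamp. It was 113.5 for Hamp2 and 113.3 for Tfr2, then 52.8 for Slc40a1, 8.98 for Hfe, 7.13 for Tfrc and 0.97 for Bmp6. Neighbours in this order were separated in all 12 libraries for Trf over Ftl1, Tfr2 over Slc40a1, Slc40a1 over Hfe and Tfrc over Bmp6. Ftl1 exceeded Fth1 in 7 libraries, Fth1 exceeded Hamp in 7 and Hfe exceeded Tfrc in 8, so these neighbours were not separated beyond their spread. Hamp exceeded Hamp2 in 11 libraries, the exception being natural female replicate 3, and Hamp2 exceeded Tfr2 in the 6 female libraries alone. In mean level within a group Hamp2 was the fifth of the 10 in females and the 9th in males.

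**Figure D3:**
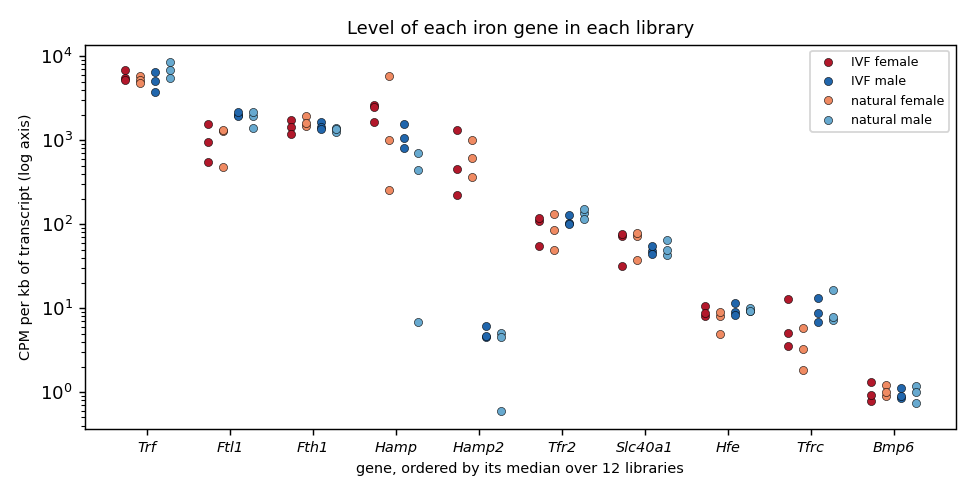
Level of each of the 10 genes in each library, in CPM per kilobase of the main transcript on a log axis, with genes ordered by their median over 12 libraries and points coloured by group. Hamp2 splits into a female range from 221 to 1324 and a male range from 0.594 to 6.21 CPM per kilobase, and Trf lies on top in every library.

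Between IVF and natural conception 0 of the 10 genes were called in females, in males, in their difference or in their average by edgeR's quasi-likelihood test, and 0 of them had an unadjusted p under 0.05 in any of these 4 comparisons, beside 3.7%, 2.69%, 3.87% and 2.69% of tested genes in that order. DESeq2 and limma voom also called 0 of the 10. Across the genome 0% of tested genes were called in females, 0.00757% in males, 0% for the difference and 0.00757% for the average. The median log2 fold change of the 10 genes was -0.003 in females and -0.02 in males, beside -0.02 and 0.01 over all tested genes. Among the 10, the values in females ran from -0.21 ± 0.21 for Fth1 to 0.95 ± 0.54 for Tfrc, and those in males from -0.46 ± 0.28 for Trf to 1.59 ± 1.18 for Hamp. In females 0 of the 10 genes had groups that did not overlap, beside 7.42% of tested genes, 3.55% with IVF higher and 3.87% with IVF lower, and in males 1 did, Hamp. Between the sexes, 5 of 10 genes had groups that did not overlap after natural conception, namely Hamp2 and Fth1 with males lower and Tfrc, Ftl1 and Hfe with males higher. This compares with 20% of tested genes, 9.85% lower and 10.1% higher. After IVF there were 3, namely Hamp and Hamp2 lower and Ftl1 higher, beside 21.8% of tested genes, 10.1% lower and 11.8% higher. An unadjusted p under 0.05 between the sexes was reached by 2 of the 10 after natural conception, 2 after IVF and 3 on average, beside 14.9%, 14.9% and 23.6% of tested genes. The comparisons within a sex and within a mode of conception share libraries, so their values are given side by side only.

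**Figure D4:**
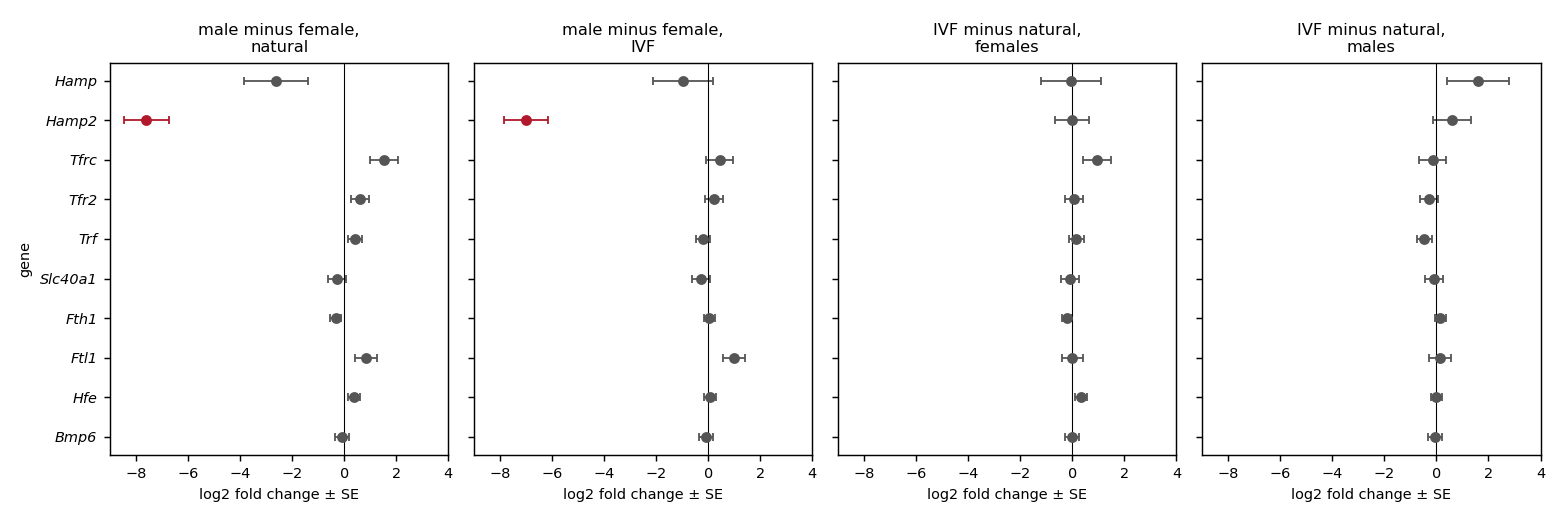
Log2 fold change with its standard error for the 10 genes in 4 comparisons, from edgeR's fit over all 12 libraries. Filled red points are called and grey points are not, and the vertical line marks no difference. Hamp2 at -7.60 and -7.00 is the only called gene, and the error bars of Hamp are the widest.

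Other genes of iron handling were read from the same fit. The list holds 58 genes, of which 57 were matched in the table and 54 were tested. Between the sexes, averaged over conception, 3 rose and 3 fell in males, or 11.1% of the 54, beside 7.2% of all tested genes. After natural conception 2 were higher in males, or 3.7%, beside 1.77% of all tested genes, and after IVF 1 was lower, or 1.85%, beside 2.19%. In the 4 comparisons of IVF with natural conception 0 were called by edgeR's quasi-likelihood test. Of the 54, 3, 6, 6 and 1 genes had an unadjusted p under 0.05 in females, males, the difference and the average. Over all tested genes 3.7%, 2.69%, 3.87% and 2.69% reached that p, and DESeq2 and limma voom also called 0. The median log2 fold change of the 54 genes between the sexes was 0.06, beside -0.01 over all tested genes. After IVF, 26 of the 54 were higher and 28 lower than after natural conception in females. The median was -0.004, beside -0.015 over all tested genes. In males 15 were higher and 39 lower after IVF, with a median of -0.10, beside 0.01. These shifts of the list were not tested.

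A part of this list, 20 tested genes, acts upstream of hepcidin or responds to the same signals. Of these 1, or 5%, was called between the sexes averaged over conception, beside 7.2% of all tested genes. It was Id1, a direct target of bone morphogenetic protein signalling that is often read as its output. Id1 was at 2.97, 13.9 and 5.81 CPM in IVF females and at 3.69, 5.63 and 2.43 CPM in natural females, against 3.78, 1.13 and 1.75 CPM in IVF males and 1.92, 1.30 and 1.90 CPM in natural males. The sexes overlapped after IVF through IVF male replicate 1. Its male minus female log2 fold change averaged over conception was -1.49 ± 0.40 (adjusted p = 0.0451 in edgeR's quasi-likelihood test), and without IVF female replicate 2, the highest library, it was -1.10 (adjusted p = 0.108). Id1 was called in 17 of 26 settings. Smad6, Smad7 and Atoh8 of the same list were not called, though Smad6 was in 9 of 26 settings. Means in IVF females, natural females, IVF males and natural males were 8.81, 10.2, 5.84 and 5.34 CPM for Smad6. In the same order they were 11.8, 9.69, 11.4 and 9.40 CPM for Smad7 and 12.6, 12.25, 15.7 and 12.5 CPM for Atoh8. The output of bone morphogenetic protein signalling was not tested.

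Of the transport genes, 4 of 19, or 21.1%, were called between the sexes averaged over conception, beside 7.2% of all tested genes. Haptoglobin and hemopexin, which bind free hemoglobin and heme in plasma, were higher in males. Both are also acute phase proteins. Of 18 other acute phase genes 3, or 16.7%, were called as higher in males after natural conception (Saa1, Saa3 and C4bp), and 0 after IVF. On average 5, or 27.8%, were called as higher (also Saa2 and Cebpd). Of all tested genes 0.894%, 0.909% and 3.57% were called as higher in males in these comparisons, in that order. Hp was at 2335 to 3015 CPM in IVF females and 1931 to 2663 CPM in natural females, and at 3301 to 6625 CPM in IVF males and 4679 to 11185 CPM in natural males. Its log2 fold change was 1.78 ± 0.36 after natural conception (adjusted p = 0.0286) and 1.26 ± 0.25 averaged over conception (adjusted p = 0.0116), in edgeR's quasi-likelihood test with Benjamini-Hochberg adjustment. Without natural male replicate 2, the highest library, the first of these was 1.47 (adjusted p = 0.103). Hpx was 3.99-fold higher in males after natural conception (adjusted p = 0.0430) and its log2 fold change was 1.13 ± 0.30 averaged over conception (adjusted p = 0.0454). After IVF the sexes overlapped, at 2269 to 3024 CPM in females and 2285 to 4609 CPM in males, with a log2 fold change of 0.26 ± 0.42 (adjusted p = 0.832). Without natural male replicate 2 the log2 fold change after natural conception was 1.61 (adjusted p = 0.149) and the averaged value was 0.93 (adjusted p = 0.102). Hpx was called in 14 of 27 settings after natural conception and was called in 11 of 26 settings for the average, against 26 of 26 for Hp.

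The other called transport genes were lower in males. Steap2, a metalloreductase, was at 13.2 to 30.6 CPM in females and 5.95 to 11.1 CPM in males, with a log2 fold change of -1.38 ± 0.23 averaged over conception (adjusted p = 0.00414) and -1.47 ± 0.33 after IVF (adjusted p = 0.0391). Without IVF female replicate 1 the value after IVF was -1.06 (adjusted p = 0.0881). Slc39a8, an importer of zinc, manganese and iron, was at 42.8 to 65.1 CPM in females and 29.8 to 38.9 CPM in males, with a log2 fold change of -0.56 ± 0.13 (adjusted p = 0.0303). Among 15 genes of iron regulation, storage and iron-sulfur clusters, Glrx5, a glutaredoxin of mitochondrial iron-sulfur cluster assembly, was called as higher in males, at 0.57 ± 0.15 (adjusted p = 0.0411), in 10 of 26 settings. It was 0.51 without IVF female replicate 1 (adjusted p = 0.0855) and 0.50 without natural female replicate 2 (adjusted p = 0.0707). All these adjusted p-values are from edgeR's quasi-likelihood test.

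Between IVF and natural conception the other iron genes with the smallest unadjusted p were Smad5, a mediator of bone morphogenetic protein signals, at -0.48 ± 0.19 in females, and Steap4, a metalloreductase, at 0.61 ± 0.25 in females. In males they were Hpx at -1.24 ± 0.43 and the interleukin-6 receptor gene Il6ra at -1.01 ± 0.36. For the difference between the sexes they were Steap4 at -1.06 ± 0.36 and Hpx at -1.73 ± 0.60. For the average they were Ncoa4, the receptor for ferritin breakdown, at -0.30 ± 0.13, and Smad5 at -0.28 ± 0.13. The adjusted p was 1 for each of these in edgeR's quasi-likelihood test, to 3 digits.

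Acute phase genes were summed beside Hamp because interleukin-6, which drives them, is known to raise hepcidin. The 18 genes summed to 76981 CPM in natural male replicate 2, the highest of the 12 libraries, where Hamp was lowest at 2.85 CPM, Tfrc highest at 81.6 CPM and Trf highest at 21949 CPM. They summed to 61867 CPM in IVF female replicate 1 and to 50114 CPM in natural male replicate 3, where Hamp was at 1078 and 180.2 CPM. The other 9 libraries ran from 27044 to 41175 CPM. The sum in IVF female replicate 1 was led by abundant genes such as C3, at 22866 CPM, and Fgb, at 10322 CPM, each the highest of the 12 libraries. Its Saa1, at 1307 CPM, was the sixth of the 12 libraries but the highest of the female libraries, as natural females reached at most 394 CPM. Its Saa3, at 3.86 CPM, was the 10th of the 12 libraries. In natural male replicates 2 and 3, where Hamp was the lowest and the third lowest, Saa1 was at 8490 and 4138 CPM and Saa3 at 173.8 and 114.7 CPM, the highest of the 12. Hp and Hpx were also highest in these libraries. The part of an acute phase response in the Hamp, Hp and Hpx values was not tested.

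**Figure D5:**
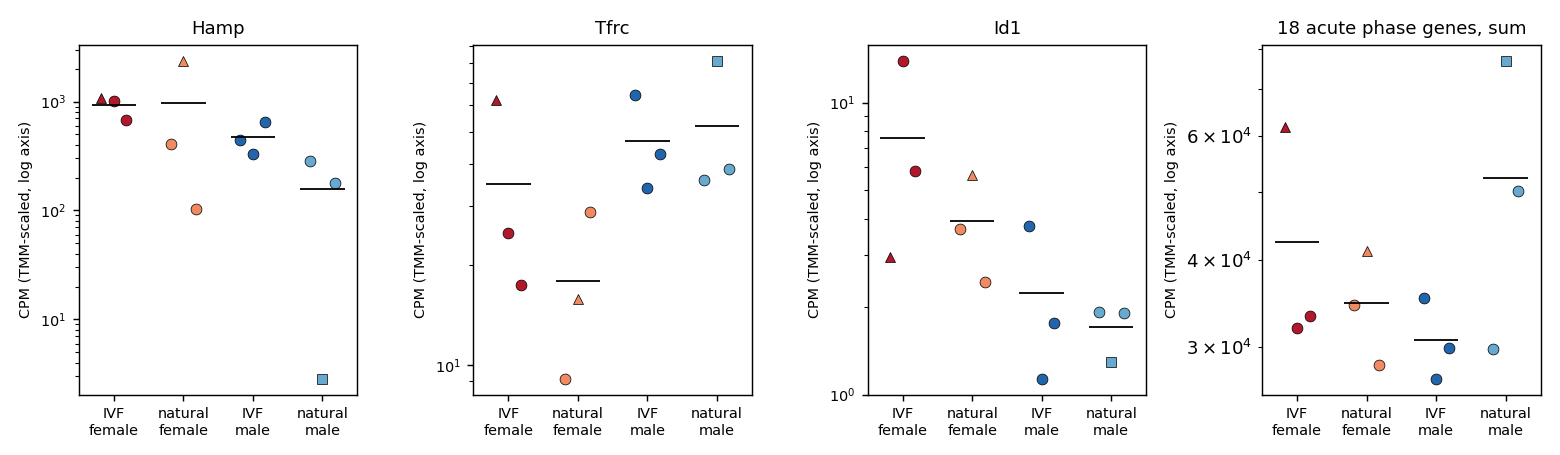
Hamp, Tfrc, Id1 and the sum of 18 acute phase genes in each library, in TMM-scaled CPM on log axes, by group. Points are libraries, lines are group means, triangles are the 2 shallow libraries and the square is natural male replicate 2. That library is the lowest for Hamp at 2.85 CPM and the highest for Tfrc and for the acute phase sum.

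The genes whose log2 CPM followed the hepcidin genes most closely over the 12 libraries were listed among the 9095 tested genes whose mean CPM reached 5. For Hamp2 they included Cyp2a4 (r = 0.971), Cyp3a41a (0.969), Cyp2c40 (0.965) and Xist (0.964). Each of these is also far higher in the female libraries, for example Cyp3a41a at 3401 to 12934 CPM in females and 4.46 to 15.5 CPM in males, so r mainly restates the split between the sexes. For Hamp they were N4bp2 (r = 0.888), Tarsl2 (0.833), H2-Aa (0.819), H2-Ab1 (0.814) and Vamp4 (0.800). The histocompatibility class II genes H2-Aa and H2-Ab1 were at 4.24 and 3.74 CPM in natural male replicate 2, their lowest values of the 12 libraries, and r without that library was 0.723 and 0.772. These values describe 12 libraries that share 4 groups and carry no test.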

How the data were processed

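Liver RNA was measured in 12 libraries, 3 for each sex and mode of conception. The authors deposited raw read counts for each gene symbol, and 0 library columns were left unused. The submitters' processing notes name Trimmomatic 0.32, STAR 2.3.0e, featureCounts 1.5.0 and mm10, without role or order. The gene models, strand setting and handling of reads that match several genes are not given in the sources used here.

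Counts were tested with edgeR 4.0.16 (R 4.3.3): filterByExpr by group, TMM, quasi-likelihood fit of 1 model with a mean for each group, and Benjamini-Hochberg adjustment over 13204 genes. Standard errors are the log2 fold change over the root of F. The 10 genes and the other lists were chosen with earlier results of these data known. By rule, a gene was described library by library if it was Hamp or Hamp2, was called, or had groups that did not overlap in both sex comparisons in the same direction or in an IVF comparison; Tfrc, Slc40a1 and Fth1 were added after their values were seen. Other iron genes were named if called, or as the 2 of smallest p in a comparison with none. Alternatives were other scalings, filters, thresholds and samples, limma 3.58.1 and DESeq2 1.42.0. The fit was tested on simulated data. Positions and transcripts came from GENCODE M21, promoters from RefSeq. 1 gene that the likeness rule names and 1 pair of sequences are not reported here.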

Additional observations from a re-analysis of the deposited data

How the results depend on the processing

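Hamp2 was called between the sexes under every alternative run. The number of the 10 genes called between the sexes averaged over conception was 1, and it was 2 with DESeq2, at an adjusted p under 0.1, with a term for the shallow libraries and without both of them, and 3 with limma voom quality weights. Leaving out each library in turn gave 1 to 2, the 2 arising without IVF female replicate 1 or 3. The male minus female difference in the share of Hamp2 was -30.2 points without both shallow libraries and -33.4 to -22.3 on leaving out each library. The first of these had an exact permutation p of 0.01, the smallest that its fewer arrangements allowed, and an adjusted p of 0.06. The log2 ratio of Ftl1 to Fth1 differed by 0.62 without both shallow libraries (exact permutation test, adjusted p = 0.06) and by 0.88 to 1.43 on leaving out each library. The IVF minus natural difference in that ratio was -0.17 to 0.39 on leaving out each library and reversed without IVF female replicate 3 (-0.13) or natural female replicate 2 (-0.17). The difference of the IVF effects on Hamp reversed to -0.16 without both shallow libraries and to -0.25 without natural female replicate 2, with a range of -0.25 to 2.42 on leaving out each library. The cause was not tested. The count of other iron genes called ran from 2 to 9 for the averaged sex difference, 0 to 4 after natural conception and 0 to 2 after IVF, an alternative chosen after seeing the data.

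Scaling by library size alone shifted the median of all genes between the sexes by -0.32 after natural conception, -0.11 after IVF and -0.21 on average, that of the IVF effect by 0.13 in males and that of its difference by 0.20, and the share of calls higher in males from 50.4% to 17.3%, from 41.5% to 29.4% and from 49.6% to 15.5%. The calls and directions of Hamp2 between the sexes did not change with it. No paired analysis was possible because the titles carry numbers of unstated meaning, of which only 1 is shared, by IVF female replicate 1 and IVF male replicate 2, so fewer than 2 pairs exist. With 3 libraries per group, 1 library could decide a value, and Hamp2 in males rested on few counts.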
